A study of Mus musculus with 35 samples.

Results

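The comparison described here is that of sham-operated with untreated liver in young male mice. It uses 8 of the 35 arrays of the series, chosen by their titles: 5 arrays of young liver after a sham operation (2 at 24 h, 1 at 38 h and 2 at 48 h) and the 3 arrays titled as young 0 h controls. All mice were CB6F1, a hybrid of BALB/c and C57BL/6. The young ones were 5 to 6 months old and came from Jackson Laboratories. Sham mice were anaesthetised with avertin and isoflurane and had their liver handled without resection. The 0 h mice are labelled as having had no treatment, and the labels do not say whether they were anaesthetised. The other arrays are used only for reference: old mice of 25 to 27 months from the NIA colony (3 untreated, 6 sham arrays) and young mice after 70% partial hepatectomy (PH, 9 arrays at the same 3 times). Each array holds 1 sample, labelled from 5 µg of liver RNA. Whether replicates came from different animals is not in the labels. The p-values therefore cover only the spread between these samples, which may be technical. The labels give neither the time of day nor the feeding state, so the operation cannot be told apart from either, and the 38 h group has 1 array.

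A sham operation exposes the liver to anaesthesia, an abdominal wound and handling while leaving its mass intact, which is why regeneration studies use it as a control. Surgical injury is known to raise interleukin-6 and interleukin-1, which drive hepatocytes to make acute-phase proteins through the transcription factors STAT3 and NF-kappaB. Liver RNA also follows feeding, glucocorticoids and the circadian clock, and immediate-early and heat shock genes respond within minutes to handling or warming of tissue.

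Values are log2 signals, so a difference of 1 is a 2-fold change, and differences are sham minus untreated ± the standard error of the limma fit. "Rose" and "fell" mark a Benjamini-Hochberg adjusted p under 0.05 over 18193 genes. Array values are given in the order untreated replicates 1, 2 and 3, then sham 24 h (2 arrays), 38 h and 48 h (2 arrays). In bulk liver, fewer cells of a type and less RNA per cell cannot be told apart.

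The sham livers differed from untreated liver in many genes by small amounts. Of 18193 genes 7165 (39.4%) passed the threshold, 3144 higher (17.3%) and 4021 lower (22.1%), with a median size of 0.40 among those called. Changes over 2-fold were mostly falls, 252 against 30 rises. In 3283 genes (18%) all 5 sham arrays lay above all 3 untreated arrays, and in 3737 (20.5%) all lay below. Across genes, arrays correlated at r of 0.993 to 0.996 within the untreated group, 0.988 to 0.996 within the sham group and 0.971 to 0.987 between them.

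Part of this breadth moved with signal strength. With the genes split into 3 equal classes by mean level, 554 of the brightest were higher and 2398 lower, against 1251 and 1251 of the middle class and 1339 and 372 of the dimmest. The spread of values over an array was narrower after sham surgery (SD 1.93 to 1.98) than in untreated liver (2.03 to 2.08). Equalising the distributions again by quantile normalization left 6773 calls but turned the split to 3985 higher and 2788 lower. The share of higher calls was then 58.8% in place of 43.9%. The median difference was 0.10 in the dimmest class, 0.04 in the middle class and -0.17 in the brightest (0.01 over all genes). The share of genes that fell was 6.13%, 20.6% and 39.5% and the share that rose 22.1%, 20.6% and 9.13%, in that order. These shares are given below beside some of the lists that lie mostly in 1 class. The brightest class also holds 24 of 26 acute-phase, 17 of 18 glucocorticoid and 14 of 15 heat shock genes. It holds 16 of 19 glucose output and insulin genes and 19 of 21 fatty acid synthesis genes. The share that rose was 57.7% for acute-phase genes. The share that fell was 77.8% (glucocorticoid), 93.3% (heat shock), 73.7% (glucose output and insulin) and 4.76% (fatty acid synthesis). Control probe sets also differed. The mean of the 3 18S ribosomal RNA probe sets was 9.12, 11.41 and 12.88 on the untreated arrays and 7.67 to 10.90 on the sham arrays. Hybridisation controls spiked into every sample read 10.02 to 10.12 in untreated liver, 10.58 to 10.81 at 24 h and 48 h, and 9.72 at 38 h. The 3' minus 5' signal of actin was 0.71 to 0.86 in untreated liver, 0.47 to 0.57 at 24 h and 48 h, and 0.80 at 38 h. Their part in the gene results was not tested.

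**Figure D1:**
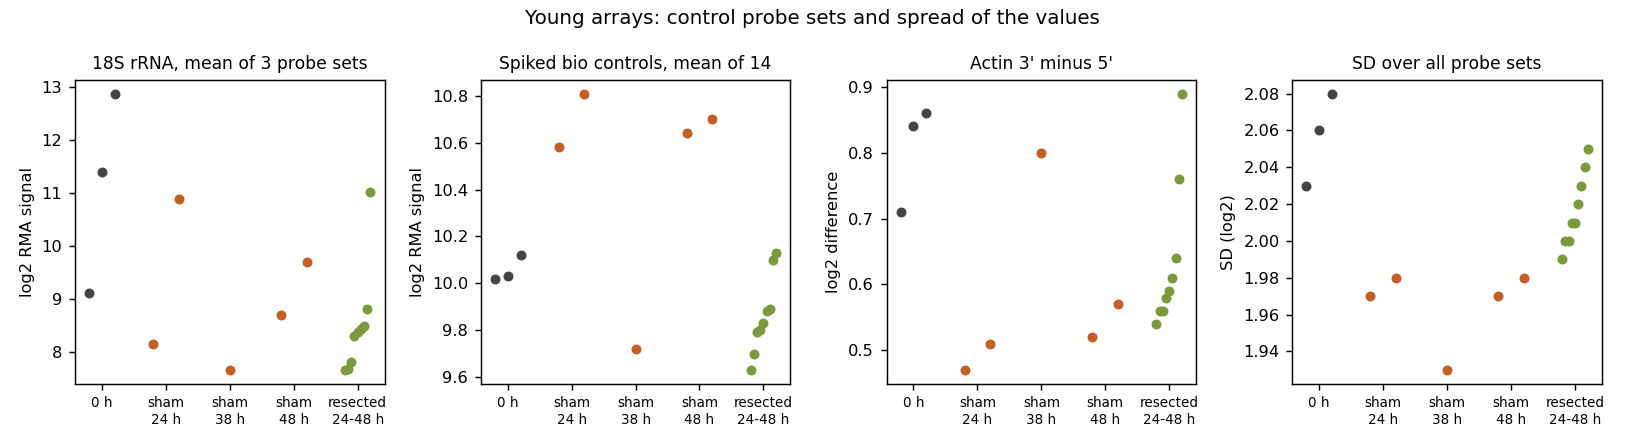
Control measures of the young arrays by group (log2 signal, log2 difference or SD of all values, 1 point per array): 18S ribosomal RNA, spiked-in controls, actin 3' minus 5' signal and the spread of values. The untreated arrays have the widest 18S range (9.12 to 12.88), and the 38 h sham array has the lowest spike signal of the sham arrays (9.72).

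The acute-phase genes held the largest rises. Of 26 measured members of the acute-phase list 15 rose and 1 fell, with a median difference of 0.47, and the counts over the alternative settings ran from 12 to 17 rises. Saa2, a serum amyloid A apolipoprotein, read 9.96, 11.61 and 9.52 in untreated liver and 14.98, 15.01, 14.59, 14.03 and 14.19 after sham surgery. Every sham array lay far above every untreated one, a difference of 4.2 ± 0.58 (18.3-fold, adjusted p 0.0001254). Lcn2, the iron-siderophore binder lipocalin 2, read 9.21, 10.38 and 8.31 against 14.38, 14.22, 13.18, 12.56 and 12.88, a rise of 4.14 ± 0.54 (17.7-fold, adjusted p 8.563e-05). Orm2, an orosomucoid that carries drugs in plasma, rose 12.3-fold from 9.28, 9.47 and 8.56 to 12.93, 12.88, 12.80, 12.40 and 12.65 (3.62 ± 0.53). Saa1 rose by 2.63 ± 0.41 and did not overlap either, although Saa1 and Saa2 are near-identical and their probe sets may share RNA. In these 4 genes the untreated replicates themselves differed by 0.91 to 2.09, and untreated replicate 2 was the highest of its group.

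The highest value of any gene on a young array was 14.88 to 15.01, so the rise of a member near that level is limited by the range of the array. Hp (haptoglobin, which binds free hemoglobin) went from 14.34, 14.38 and 14.35 to 14.89, 14.91, 14.82, 14.73 and 14.76, a rise of 0.47 ± 0.07, the groups not overlapping. Fgl1, a fibrinogen-like protein secreted by hepatocytes that was not on the list, rose 3.54-fold from 12.39, 12.06 and 11.92 to 14.14, 14.12, 13.96, 13.65 and 13.86 (1.82 ± 0.14). The iron hormone gene Hamp, at 13.94 to 14.12 untreated and 13.95 to 14.41 after sham surgery, did not pass (0.21 ± 0.10, adjusted p 0.1078). The metallothioneins Mt1 (0.23 ± 0.63) and Mt2 (-0.23 ± 0.69) did not pass either. Untreated replicate 3 was low for both, Mt1 reading 11.26 against 13.57 and 13.88. The 1 member that fell was Steap4, a metalloreductase (-0.51 ± 0.14), whose call was lost without untreated replicate 1 (adjusted p 0.05) and with all 35 arrays in the fit (0.123). Of 10 measured plasma proteins known to fall in the acute phase none passed as lower. Alb (albumin) read 14.88 to 14.93 on all 8 arrays, at the top of the range, where a change may not be visible. Apoa4, an intestinal and hepatic apolipoprotein, rose by 0.92 ± 0.19.

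**Figure D2:**
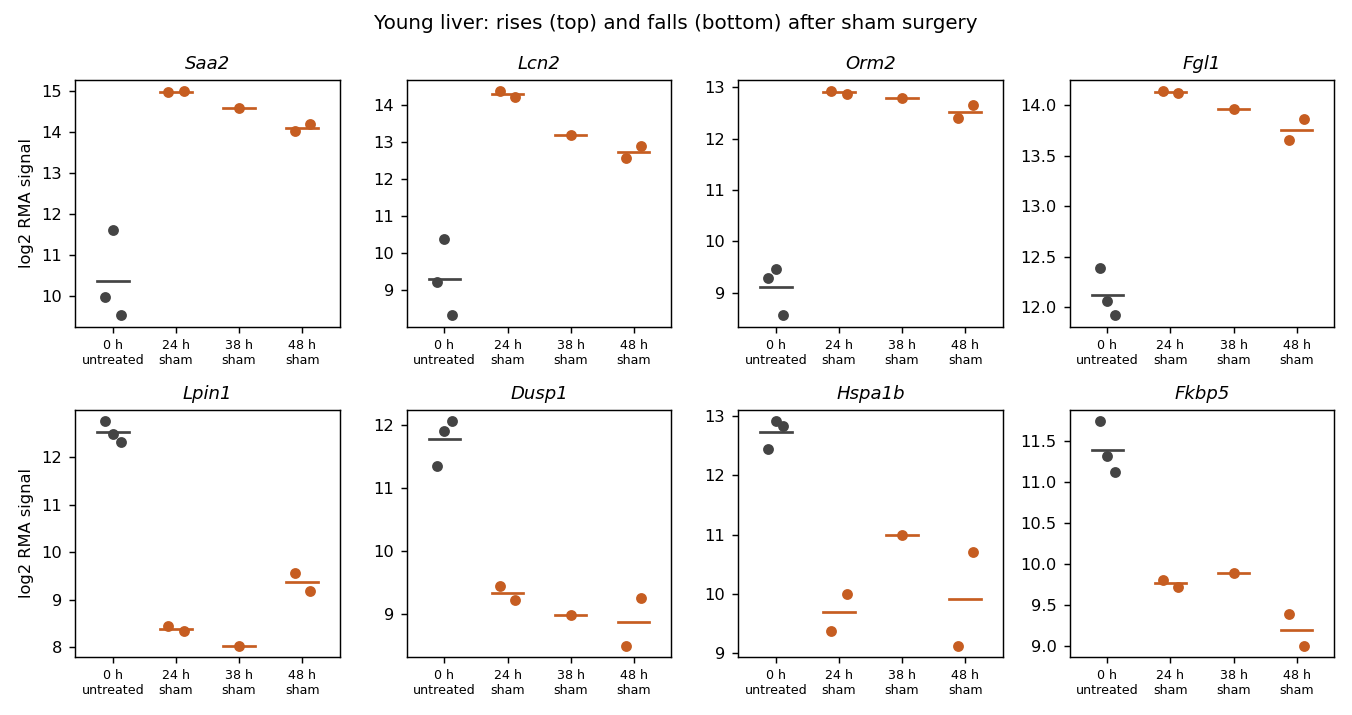
Log2 signal of 4 genes that rose (Saa2, Lcn2, Orm2, Fgl1) and 4 that fell (Lpin1, Dusp1, Hspa1b, Fkbp5) on each of the 3 untreated and 5 sham arrays. Points of the groups do not overlap in any of the 8 genes.

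By time, Saa2 stood above untreated liver by 4.63 ± 0.72 at 24 h, 4.23 ± 0.91 at 38 h and 3.75 ± 0.72 at 48 h. Lcn2 stood above by 5.0 ± 0.67, 3.88 ± 0.85 and 3.42 ± 0.67. These comparisons share the untreated arrays. At 48 h Lcn2 differed from 24 h by -1.58 ± 0.73, which did not pass (adjusted p 0.9998). The acute-phase score, the mean difference of the list from untreated liver, was 1.10 and 1.01 at 24 h, 0.83 at 38 h and 0.67 and 0.76 at 48 h. PH arrays, compared with the same untreated arrays, scored 0.62 to 1.05.

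The promoters of 22 acute-phase members were found in RefSeq (250 bases before to 50 after the start, GRCm38.p6). The STAT motif TTCNNNGAA occurred on either strand in 6 of them (27.3%) and in 8.57% of 14452 measured genes. The NF-kappaB motif, GGGNN joined to TTTCC, occurred in 3 (13.6%) and in 1.89%. Holders included Steap4, which fell and has both motifs, and Hamp, which did not pass and has the STAT motif. Apcs (serum amyloid P) and Serpina3n (a serine protease inhibitor) are shown as examples of members that rose and hold 1 such match. They were chosen after their values were seen. Apcs read 12.82, 12.75 and 12.63 against 14.02, 14.07, 13.97, 13.59 and 13.80. Serpina3n read 12.89, 12.94 and 12.70 against 13.76, 13.63, 13.25, 13.02 and 13.07. Capitals mark the STAT match 244 bases before the start of Apcs. In Serpina3n they mark the NF-kappaB match 171 bases before and, 78 bases before, a match to the glucocorticoid response element, in which GNACA and TGTNC stand 3 bases apart. The Apcs window is chr1:172895055-172895304 on the minus strand and the Serpina3n window chr12:104406458-104406707 on the plus strand.
Apcs: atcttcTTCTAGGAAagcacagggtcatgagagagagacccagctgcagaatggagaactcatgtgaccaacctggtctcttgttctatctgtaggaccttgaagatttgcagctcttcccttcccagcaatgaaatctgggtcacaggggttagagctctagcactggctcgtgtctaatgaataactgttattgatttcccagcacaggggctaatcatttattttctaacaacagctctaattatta
Serpina3n: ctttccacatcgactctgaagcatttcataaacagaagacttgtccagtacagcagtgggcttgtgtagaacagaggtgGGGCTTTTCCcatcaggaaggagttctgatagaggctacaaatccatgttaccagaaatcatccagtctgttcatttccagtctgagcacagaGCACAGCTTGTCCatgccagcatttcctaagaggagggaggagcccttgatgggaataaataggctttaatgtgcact

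Few cytokine and interferon genes passed. Of 22 cytokine and inflammation genes 2 rose (9.09%, against 17.3% of all genes) and 2 fell (9.09%, against 22.1%). Those that rose were Tnf (tumor necrosis factor, 0.52 ± 0.08) and the chemokine Cxcl12 (0.45 ± 0.09, adjusted p 0.128 with all 35 arrays in the fit). Nfkbia, the inhibitor of NF-kappaB, fell by 0.45 ± 0.12 from 12.16, 12.55 and 12.40 to between 11.76 and 12.04, although 1 of its probe sets rose and without 1 array its adjusted p reached 0.0534. Nfkbiz (-0.61 ± 0.23) lost its call in 6 of 8 fits without 1 array. Of 27 interferon-induced genes 3 rose (11.1%) and 1 fell (3.7%), with a median of -0.13 (0.04 after repeated quantile normalization). The 3 that rose are among the 14 members in the brightest class, in which 9.13% of all genes rose. Irf1, an interferon-regulated transcription factor, rose by 0.59 ± 0.11 with no overlap. Ifit1 differed by -0.41 ± 0.38 and did not pass.

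The largest fall among genes whose groups did not overlap was that of Lpin1. Lpin1, the phosphatidate phosphatase lipin 1 that also coactivates fasting genes, read 12.76, 12.49 and 12.32 untreated and 8.44, 8.35, 8.04, 9.57 and 9.19 after sham surgery. No array overlapped, and the fall was 14-fold (-3.80 ± 0.34, adjusted p 1.137e-05). Upp2, a uridine phosphorylase, fell from 12.41, 12.47 and 11.78 to 9.37, 8.77, 8.53, 11.64 and 10.73 (-2.41 ± 0.46). The 48 h arrays were nearest to untreated liver, although 48 h against 24 h did not pass (2.11 ± 0.62, adjusted p 0.8479). Mme, the membrane peptidase neprilysin, was at 6.71 and 6.33 at 24 h, 8.20 at 38 h, 8.14 and 8.20 at 48 h and 8.87 to 9.69 untreated (-1.86 ± 0.26). Gadd45g (a growth-arrest gene, -2.56 ± 0.34), Klf10 (a TGF-beta inducible factor, -2.06 ± 0.18), Cpeb2 (an mRNA-binding regulator of translation, -1.84 ± 0.22) and Ccn2 (connective tissue growth factor, -1.84 ± 0.22) fell without overlap. Their sham values ranged from 6.29 in Klf10 to 9.41 in Cpeb2.

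Immediate-early genes, transcribed within minutes of a stimulus, were lower where they passed. Of 21 measured members 11 fell (52.4%, against 22.1% of all genes) and none rose, with a median of -0.64. The number that fell was 6 without the 38 h array and 5 without untreated replicate 2. In the brightest class 7 of 10 members fell, against 39.5% of that class, and in the middle class 3 of 8, against 20.6%. Dusp1, the phosphatase that ends MAP kinase signalling, fell 6.48-fold from 11.35, 11.91 and 12.06 to 9.44, 9.22, 8.98, 8.50 and 9.25 (-2.70 ± 0.21, adjusted p 7.981e-06). Jun, an AP-1 subunit, fell by 1.74 ± 0.20 from 9.95, 10.48 and 9.61 to 8.54, 8.50, 8.53, 7.70 and 8.06. Myc, the growth-promoting transcription factor, fell by 1.32 ± 0.17 without overlap. For Fos the untreated values were 7.87, 9.86 and 7.88 and the sham values 7.53, 7.29, 6.91, 7.47 and 7.39. Its difference of -1.22 ± 0.34 was -0.55 without untreated replicate 2. Egr1 (-1.83 ± 0.60) read 9.63, 11.32 and 9.72 against 9.76, 7.74, 7.66, 8.68 and 8.12, overlapped, and lost its call without untreated replicate 2 (adjusted p 0.134) or the 38 h array (0.0574). After PH, compared with the same untreated arrays, Jun was at 8.72 to 11.34 (median 10.61) and Fos at 8.41 to 10.77 (median 9.94).

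The promoter of Dusp1 is shown because it has the largest fall in this list and holds 2 motif matches. Its window is chr17:26508473-26508722 on the minus strand. Capitals mark the cAMP response element TGACGTCA, 143 bases before the start, and the E-box CACGTG, 126 bases before. Among 18 members with a window the first occurred in 2 (11.1%, against 2.92% of all genes) and the second in 5 (27.8%, against 10.2%).
Dusp1: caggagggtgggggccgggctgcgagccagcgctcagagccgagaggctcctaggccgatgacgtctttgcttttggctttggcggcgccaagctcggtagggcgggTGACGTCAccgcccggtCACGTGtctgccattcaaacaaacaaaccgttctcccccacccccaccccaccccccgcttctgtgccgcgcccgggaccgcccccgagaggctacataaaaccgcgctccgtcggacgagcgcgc

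Genes known to be induced by glucocorticoids fell in most cases. Of 18 measured members 14 fell, 1 rose (Lcn2) and 3 did not pass (Mt1, Mt2 and Ddit4), with a median of -0.87. The list shares members with others, among them Dusp1 (immediate-early), Per1 (clock) and Igfbp1 (glucose output), so these lists are not separate. The number that fell stayed between 12 and 14 under every alternative run. Fkbp5, the co-chaperone that limits receptor activity, fell 3.57-fold from 11.74, 11.31 and 11.12 to 9.80, 9.72, 9.88, 9.38 and 9.0 (-1.84 ± 0.23). Angptl4, an inhibitor of lipoprotein lipase, fell by 1.39 ± 0.28 from 11.90, 11.85 and 12.37 to 11.21, 10.28, 10.93, 10.41 and 10.40. Igfbp1, a binder of insulin-like growth factors, had 11.93, 14.15 and 11.52 untreated and 11.54, 9.27, 8.71, 9.51 and 9.90 after sham surgery. The groups overlapped at 24 h replicate 1, and the difference was -2.75 ± 0.62 (adjusted p 0.00355). The list score was -0.32 at 24 h replicate 1 and -0.88 to -0.74 on the other sham arrays.

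Heat shock genes, which encode chaperones that refold proteins, were lower too. Of 15 measured members 14 fell and none rose, with a median of -0.62. The number that fell was 9 after repeated quantile normalization and 9 with all 35 arrays in the fit. Hspa1b, an inducible Hsp70, read 12.44, 12.92 and 12.84 untreated and 9.12 to 10.99 after sham surgery, highest on the 38 h array, a 6.47-fold fall without overlap (-2.69 ± 0.29). Its near-identical partner Hspa1a fell by 1.57 ± 0.33, a call lost under 2 of 13 alternatives (adjusted p up to 0.0741). Hsph1, a large Hsp110 chaperone, fell from 12.11, 12.01 and 12.53 to 10.53, 11.42, 11.20, 9.80 and 10.95 (-1.44 ± 0.28). Chordc1, a cochaperone of Hsp90, fell by 0.93 ± 0.18, a call lost with all 35 arrays in the fit (adjusted p 0.0668). The small heat shock protein gene Hspb1 did not pass (-0.14 ± 0.17): the 38 h array had 11.98, the others 10.37 to 10.80, and untreated liver 10.59 to 11.45. Heat shock scores ran from -1.13 to -0.45 after sham surgery and from -0.56 to 0.28 after PH.

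The heat shock element, in which GAA, TTC and GAA follow each other 2 bases apart, was found on either strand in 4 of 13 heat shock promoters (30.8%) and in 0.609% of all genes. The holders were Hsph1, Chordc1, Hspd1 and Hspe1. All 4 fell, but so did 14 of the 15 measured members, so the falls do not set the holders apart. Hspe1, the mitochondrial chaperonin partner of Hspd1, is shown because 2 matches overlap there, 89 and 84 bases before the start. It was chosen after its values were seen. It fell by 0.28 ± 0.08, from 12.83, 13.10 and 12.96 to 12.51, 12.60, 12.85, 12.71 and 12.76, with an overlap at 38 h. Capitals mark the matches in chr1:55087898-55088147 on the plus strand. Hspd1 is transcribed away from the same region, so the 2 genes share a promoter and may hold the same matches.
Hspe1: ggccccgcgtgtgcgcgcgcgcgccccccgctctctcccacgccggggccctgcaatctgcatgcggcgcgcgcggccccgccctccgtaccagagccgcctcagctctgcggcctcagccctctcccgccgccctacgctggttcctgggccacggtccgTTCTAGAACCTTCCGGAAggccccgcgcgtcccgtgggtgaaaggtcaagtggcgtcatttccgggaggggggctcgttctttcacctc

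**Figure D3:**
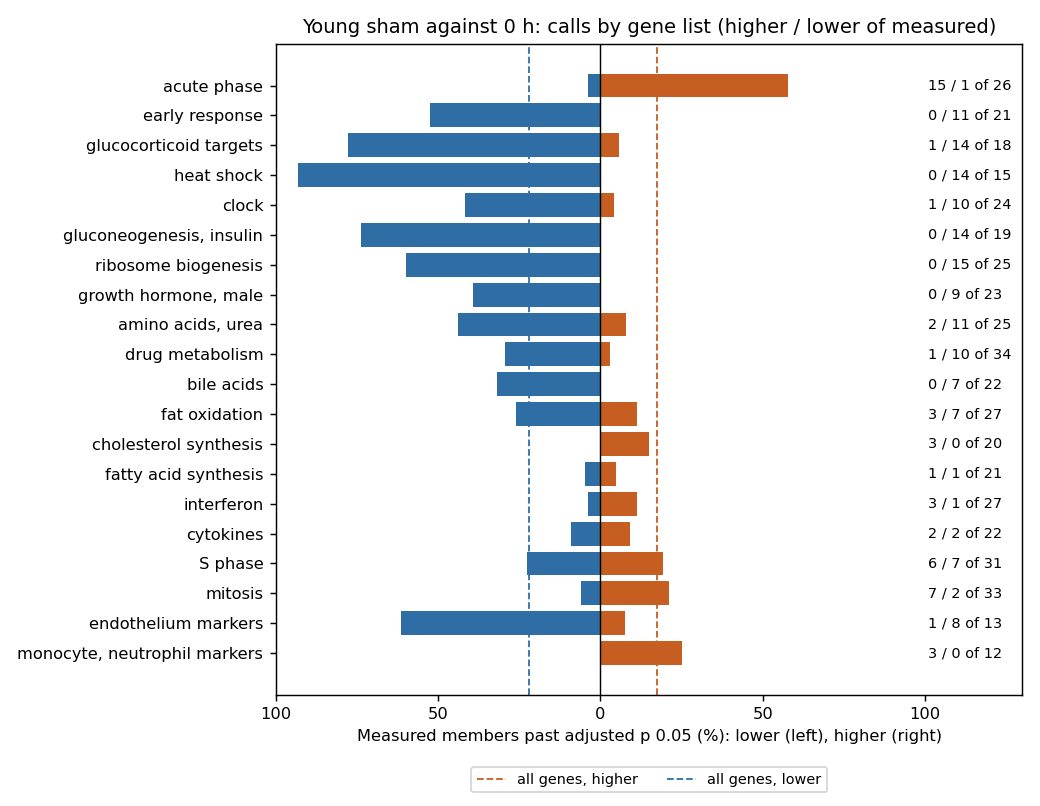
Percent of the measured members of 20 gene lists that rose or fell in sham against untreated young liver (adjusted p under 0.05), with the share of all genes as dashed lines (17.3% higher, 22.1% lower). Acute-phase members lie mostly on the higher side, and heat shock, glucocorticoid and gluconeogenesis members on the lower side.

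Genes of glucose output and insulin signalling fell as a list: 14 of 19 fell and none rose, with a median of -0.47. Between 10 and 15 fell under the alternatives. Pfkfb3, which makes the glycolytic activator fructose 2,6-bisphosphate, fell by 2.16 ± 0.23 (9.80, 9.72 and 9.59 against 7.45, 8.35, 6.83, 7.59 and 7.5), and by 1.19 as the mean of its 2 probe sets, the second of which did not pass (-0.22 ± 0.12). G6pc, the glucose-6-phosphatase that releases glucose, fell from 12.95, 13.29 and 12.81 to 12.34, 11.60, 11.74, 12.04 and 12.11 (-1.05 ± 0.21). Foxo3, a transcription factor that insulin inactivates, fell by 0.97 ± 0.08 with no overlap. Pck1, the rate-limiting enzyme of gluconeogenesis, fell by 0.45 ± 0.10, a call lost with all 35 arrays in the fit (adjusted p 0.0513). Irs2 and Fbp1, both at a difference of 0.07, did not pass.

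Few sterol genes passed. Of 20 cholesterol synthesis genes 3 rose (15%, against 17.3% of all genes and 9.13% of the brightest class, which holds 19 of them) and none fell (Mvd 0.96 ± 0.35, Fdft1 0.74 ± 0.26 and Mvk 0.63 ± 0.21). The median was 0.36. No member passed without untreated replicate 2, untreated replicate 3, or either 24 h array, nor with all 35 arrays in the fit, whereas 8 passed after repeated quantile normalization and 14 with the 8 young arrays alone. Sqle, squalene epoxidase, was at 11.31 to 11.64 untreated and 11.32 to 12.16 after sham surgery (0.25 ± 0.27). In fatty acid synthesis 1 of 21 rose (Pnpla3, a lipid droplet protein, 0.53 ± 0.10) and 1 fell (Dgat2, triglyceride synthesis, -0.38 ± 0.07). Fasn (0.19 ± 0.29) and Scd1 (-0.18 ± 0.19) did not pass.

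Fat oxidation genes went in both directions, 3 of 27 higher (11.1%) and 7 lower (25.9%), with a median of -0.06. In the brightest class, which holds 22 of them, 9.13% of all genes rose and 39.5% fell. Without the 38 h array 1 rose, and without untreated replicate 1 only 3 fell. Cyp4a14, a PPAR-alpha responsive fatty acid hydroxylase, was 9.33, 7.84 and 8.62 untreated and 10.47, 9.21, 12.03, 8.50 and 9.82 after sham surgery. The groups overlapped, and its rise of 1.41 ± 0.42 was 0.91 without the 38 h array (adjusted p 0.125). Ehhadh, a peroxisomal enzyme, fell by 0.72 ± 0.15. Pdk4, which blocks pyruvate oxidation in fasting, differed by 0.13 ± 0.40.

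Amino acid and urea cycle genes were lower in 11 of 25 (44%, against 39.5% of the brightest class, which holds 24 of them) and higher in 2 (median -0.24). After repeated quantile normalization 7 fell. Gpt2, a mitochondrial alanine aminotransferase, fell by 1.08 ± 0.13 from 12.54, 12.31 and 12.25 to between 10.96 and 11.59. Aass (lysine breakdown, -0.60 ± 0.10) and Otc (urea cycle, -0.45 ± 0.08) also fell without overlap. Bile acid genes, all in the brightest class, fell in 7 of 22 (31.8%, against 39.5% of that class; median -0.27), in 4 without the 38 h array and in 2 without untreated replicate 1 or after repeated quantile normalization. Cyp7a1, the rate-limiting enzyme of bile acid synthesis, ranged from 8.77 to 11.38 after sham surgery and from 10.15 to 11.07 untreated and did not pass (-0.38 ± 0.62). Abcc2, a canalicular exporter, fell by 0.49 ± 0.12, with its call lost in 2 of 14 settings other than single-array removals (adjusted p up to 0.124).

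Of 34 drug metabolism genes 10 fell (29.4%) and 1 rose (median -0.13). In the brightest class, which holds 26 of them, 8 fell. As lists, the bile acid and drug metabolism genes were thus not lower more often than other bright genes. Ugt2b38, a glucuronosyltransferase whose probe set may read related family members, read 9.38, 9.95 and 10.21 against 7.46, 7.85, 8.08, 6.93 and 7.43 (-2.30 ± 0.50). Sult1d1, a sulfotransferase, fell by 1.03 ± 0.13, and Cyp3a13, a cytochrome P450, rose by 0.58 ± 0.09. With all 35 arrays in the fit 3 members fell. Cyp2b10 differed by -0.65 ± 0.27 and did not pass (adjusted p 0.07067). Of 23 growth hormone dependent, male-biased genes 9 fell (39.1%, near the 39.5% of the brightest class) and none rose (median -0.29). Without untreated replicate 3 the number that fell was 5. Socs2, the feedback inhibitor of growth hormone signalling, fell 4.78-fold from 10.15, 9.71 and 10.45 to 8.08, 7.95, 8.57, 7.22 and 7.41 (-2.26 ± 0.27). The mean of its 6 probe sets fell by 0.91. Cish, another STAT5-driven inhibitor, fell by 1.06 ± 0.23. Igf1, the main hormone product of that pathway, differed by -0.08 ± 0.06.

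The circadian clock is a feedback loop in which CLOCK and ARNTL drive Per, Cry and Nr1d genes, whose products repress them. Of 24 clock and clock output genes 10 fell (41.7%, against 22.1% of all genes) and 1 rose (4.17%), with a median of -0.48. In the brightest class 7 of 13 members fell, against 39.5% of that class, and in the middle class 3 of 8, against 20.6%. Per1 read 9.31, 9.5 and 8.90 against 8.45, 8.44, 8.13, 8.46 and 8.34, falling without overlap (-0.87 ± 0.23). Clock fell by 1.05 ± 0.21, also without overlap, and by 0.39 as the mean of its probe sets. Nr1d2, a repressor of Arntl, fell by 1.27 ± 0.14 from 11.84, 11.59 and 11.50 to 8.83 on the 38 h array and 10.61 or more on the other sham arrays, with no overlap. Nr1d1, its partner, was 10.48, 9.79 and 9.85 untreated and 9.85, 9.98, 7.47, 9.98 and 10.26 after sham surgery. The 38 h array alone lay below the untreated range. The difference of -0.53 ± 0.16 was -0.02 without that array (adjusted p 0.93) and -0.31 without untreated replicate 1 (0.134). With all 35 arrays in the fit its adjusted p was 0.0977, and after repeated quantile normalization 0.0979. Dbp, a clock output factor, was 6.97 at 38 h, 8.89 to 10.31 on the other sham arrays and 9.93 to 11.49 untreated, and did not pass (-1.62 ± 0.65, adjusted p 0.06318). Arntl was 8.58 to 9.75 untreated and 8.39 to 9.25 after sham surgery (-0.30 ± 0.34).

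The E-box CACGTG, to which CLOCK and ARNTL bind, was found in 6 of 21 clock promoters (28.6%) and in 10.2% of all genes. Per1 is shown as the member that fell without overlap and holds a match, in capitals 166 bases before the first of its starts. The window is chr11:69098699-69098948 on the plus strand.
Per1: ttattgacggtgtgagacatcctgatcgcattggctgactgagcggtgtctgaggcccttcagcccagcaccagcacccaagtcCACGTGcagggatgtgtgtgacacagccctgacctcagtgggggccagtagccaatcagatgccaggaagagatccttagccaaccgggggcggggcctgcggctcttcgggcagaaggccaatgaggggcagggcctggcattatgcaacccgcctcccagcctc

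**Figure D4:**
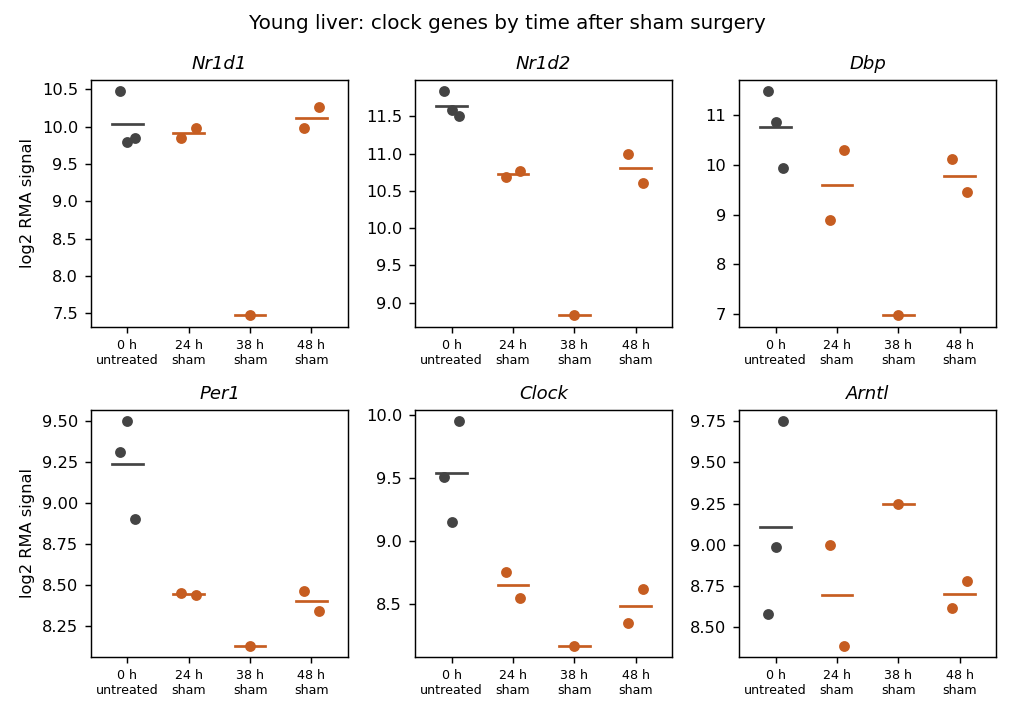
Log2 signal of 6 clock genes on the untreated arrays and on the sham arrays by time. Nr1d1 (7.47), Nr1d2 (8.83) and Dbp (6.97) have their lowest sham value on the single 38 h array.

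The 38 h array set against the 4 arrays at 24 h and 48 h gave 90 calls (0.495% of genes), 33 higher (0.181%) and 57 lower (0.313%). The group is 1 array, assumed to vary like the others, so time and array cannot be told apart. Without untreated replicates 1, 2 and 3 in turn 57, 105 and 31 genes were called, without the 24 h arrays 14 and 23, and without the 48 h arrays 11 and 9. Lower at 38 h were Nr1d1 (-2.55 ± 0.25, adjusted p 0.001235) and Nr1d2 (-1.94 ± 0.22, adjusted p 0.002986). So were Malat1, a nuclear noncoding RNA (-2.0 ± 0.28), the phosphodiesterase Pde4b (-1.84 ± 0.33), the major urinary protein Mup10 (-1.72 ± 0.30) and the cytochrome P450 Cyp1a2 (-0.88 ± 0.16). Mup genes are near-identical, so the Mup10 signal may come from several. Higher at 38 h were Cd36, a fatty acid transporter (2.06 ± 0.40), Cox6b2 (1.66 ± 0.19), Tpbpb (1.52 ± 0.24), Hspb1 (1.36 ± 0.26) and the unnamed transcript 5730507C01Rik (0.99 ± 0.19). Against untreated liver the single times gave 4810 calls at 24 h (26.4%), 5308 at 38 h (29.2%) and 4291 at 48 h (23.6%), sharing the same untreated arrays. At 24 h the count was 2409 and 1857 without its first and second array and 3113 without untreated replicate 1. At 48 h it was 1137 and 2199 without its first and second array and 2587 without untreated replicate 1. After repeated quantile normalization the share of higher calls was 55.5% in place of 39.6% at 24 h, 58.8% in place of 40.5% at 38 h and 55.6% in place of 37.6% at 48 h. In the 38 h contrast it was 50.3% in place of 36.7%. At 48 h against 24 h limma called 0 genes, with 797 at an unadjusted p under 0.05, and called 2 with an intensity trend and 14 with array weights.

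Of 25 genes of ribosome assembly 15 fell (60%, against 22.1% of all genes) and none rose (median -0.45), with 12 to 18 falls under the alternatives. In the brightest class 8 of 18 members fell, against 39.5% of that class. In the middle class 7 of 7 fell, against 20.6%. Rrs1, needed for the large subunit, fell from 10.74, 10.69 and 10.77 to 9.37, 9.70, 9.54, 9.47 and 9.71 (-1.18 ± 0.10). Tsr1 (small subunit maturation, -1.0 ± 0.16), Ddx21 (a nucleolar helicase, -0.90 ± 0.12) and Nolc1 (a nucleolar phosphoprotein, -0.89 ± 0.15) fell without overlap. The list score was -0.54 to -0.35 on the sham arrays and -0.05 to 0.25 after PH.

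Cell cycle genes showed no common direction. Of 31 S phase genes 6 rose (19.4%, near the 17.3% of all genes) and 7 fell (22.6%, near 22.1%), with a median of -0.16. The counts were 3 and 4 without untreated replicate 3. Of 33 mitosis genes 7 rose (21.2%) and 2 fell (6.06%), with a median of 0.09. In the middle class, which holds 25 of them, 20.6% of all genes rose and 20.6% fell. Ccne1, cyclin E1, rose by 0.92 ± 0.17 from 7.83, 8.03 and 7.56 to 8.43, 8.81, 9.11, 8.63 and 8.67. Rrm2, a ribonucleotide reductase subunit, fell by 1.15 ± 0.24, a call lost with all 35 arrays in the fit (adjusted p 0.0669). Kif23, a cytokinesis motor, rose by 0.77 ± 0.10. Mki67 (6.39 to 6.46 untreated, 6.14 to 6.91 after sham surgery) and Pcna (-0.20 ± 0.13) did not pass. After PH, Mki67 was at 6.65 to 11.49, and the list medians against the same untreated arrays were 1.56 for S phase and 2.38 for mitosis. Of 16 p53 targets 2 rose and 4 fell. Cdkn1a, the cell cycle inhibitor p21, fell by 1.29 ± 0.12 from 9.87, 10.19 and 9.66 to 8.53, 8.33, 8.91, 8.80 and 8.53. After PH it was at 9.96 to 11.94. Trp53inp1, a stress-induced regulator of p53, fell by 1.68 ± 0.26, and Bbc3, the cell death activator PUMA, rose by 0.77 ± 0.18.

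Several genes outside the fixed lists rose on some of their probe sets and not on others. Malat1 rose by 2.14 ± 0.18 from 8.61, 8.91 and 8.57 to 11.03, 11.29, 9.24, 11.41 and 11.20, but 3 of its 7 probe sets rose and the mean of all rose by 0.62. Srrm2, a splicing protein, rose by 1.53 ± 0.19 (2 of 3 probe sets). Zfp3 (1.60 ± 0.22), the cell death gene Bmf (1.54 ± 0.19) and the protease Ufsp1 (1.32 ± 0.14) rose on 1 of 2, 1 of 3 and 1 of 2 probe sets. All 3 probe sets of Csdc2, an RNA-binding protein, rose (1.51 ± 0.20). Cryl1, a crystallin, rose by 1.40 ± 0.31 on 1 of 4 probe sets and fell on another, and the mean of all 4 did not pass (0.15, adjusted p 0.316).

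Markers of the cell types were taken from fixed lists. Of 10 hepatocyte genes, all in the brightest class, 4 fell (40%, near the 39.5% of that class, with differences from -0.38 to -0.15), and 2 did so without the 38 h array. Their mean level was 14.28 to 14.30 untreated and 14.10 to 14.23 after sham surgery. Endothelial genes fell in 8 of 13 (61.5%, against 22.1% of all genes) and rose in 1 (median -0.44). Without untreated replicate 1 or 3 there were 5 falls. In the middle class 5 of 6 members fell, against 20.6% of that class, and in the brightest 2 of 6, against 39.5%. Tek, the angiopoietin receptor, fell by 0.97 ± 0.17 from 9.22, 8.66 and 9.12 to 8.12, 8.14, 8.11, 7.67 and 8.10. The sinusoidal scavenger receptor Stab2 (-0.65 ± 0.12) and Oit3 (-0.69 ± 0.14) fell too, whereas Egfl7 rose by 0.64 ± 0.07. Of 12 Kupffer cell and macrophage genes none rose and 1 fell (8.33%, against 22.1% of all genes). This was Cd163, a hemoglobin scavenger receptor, which fell by 1.21 ± 0.22 from 9.01, 8.91 and 9.01 to 8.11, 7.84, 7.82, 7.59 and 7.47. Of 12 monocyte and neutrophil genes 3 rose (25%), against 17.3% of all genes and 20.6% of the middle class, which holds 7 of them. The median was 0.33, and those that rose were Ccr2 (0.68 ± 0.16), Cxcr2 (0.43 ± 0.12) and Csf3r (0.34 ± 0.09). The Cxcr2 call was lost without untreated replicate 1. Their mean level was 7.42 to 7.85 untreated and 7.72 to 8.03 after sham surgery, and the part of such cells in the acute-phase rises was not tested.

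Of 14 stellate cell genes 5 fell (35.7%, against 22.1% of all genes) and 1 rose, with 3 falls without untreated replicate 1 or 3. In the brightest class 3 of 8 members fell, near the 39.5% of that class, and in the middle class 2 of 6, against 20.6%. Those that fell included Colec11 (-0.65 ± 0.13, adjusted p up to 0.119 under the alternatives) and Reln (-0.49 ± 0.11, up to 0.0552). Among 24 matrix and repair genes 3 rose and 2 fell, with Timp1, an inhibitor of matrix proteases, up by 0.85 ± 0.18. Markers of other cells went in both directions. Of 5 erythrocyte genes 2 fell and none rose, and of 7 platelet genes 2 rose and 1 fell. Of 8 B and plasma cell genes 1 rose, as did 1 of 10 gallbladder and gut genes, and none fell in either list. None of the following lists held a fall. T and NK cell genes rose in 3 of 10 (30%), bile duct genes in 3 of 10 (30%), mesothelial genes in 3 of 8 (37.5%) and exocrine pancreas genes in 4 of 9 (44.4%, 1 gene without untreated replicate 1 or 3), against 22.1% of the dimmest and 20.6% of the middle class. Adipose (9) and skeletal muscle (12) genes gave no call. The mean levels of these lists were 7.04 to 7.48 untreated and 7.18 to 7.69 after sham surgery for T and NK cells and bile duct, 7.19 to 7.77 and 7.34 to 7.80 for mesothelium and pancreas, and 6.87 to 6.95 and 6.96 to 7.05 for muscle. Adipose markers were at 8.70 to 8.89 untreated and 8.58 to 8.74 after sham surgery. The part of such cells in the other results was not tested.

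Old sham and untreated livers are other arrays of the same operation. They differed in the same control measures: 18S signal was 12.09 to 12.66 untreated and 8.26 to 8.96 after sham surgery, and the SD over an array 2.03 to 2.09 and 1.96 to 2.01. The part of these measures in the shared signs was not tested. Of the genes called in young liver 97.3% had the same sign in old sham against old untreated liver, and of all genes 83.1%. The median among genes higher in young was 0.34 in young and 0.26 in old, and among those lower -0.47 and -0.35. Map3k5, a stress-activated kinase, was the 1 gene (0.0055%) whose response differed by age. It was 10.54, 10.25 and 10.37 untreated and 8.73 to 9.05 after sham surgery in young liver, and 9.72, 9.63 and 9.58 against 8.91 to 9.18 in old. The difference in response was -0.90 ± 0.12 (adjusted p 0.04337), and 0 to 4 genes passed under the alternatives. No gene passed without untreated replicate 1 or 3, or without any 1 of the 24 h and 48 h arrays. Old untreated livers varied widely in acute-phase genes. Saa2 was 11.07, 12.95 and 14.25 there, within and below the old sham range of 13.35 to 14.93, and its smaller old response of 1.57 was not shown to differ (adjusted p 0.487). Of the 132 named genes past the threshold in young liver 5 had the other sign in old liver: Cish (0.04), Srxn1 (0.11), Nr1d1 (0.25), Cryl1 (-0.22) and Xaf1 (-0.20).

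**Figure D5:**
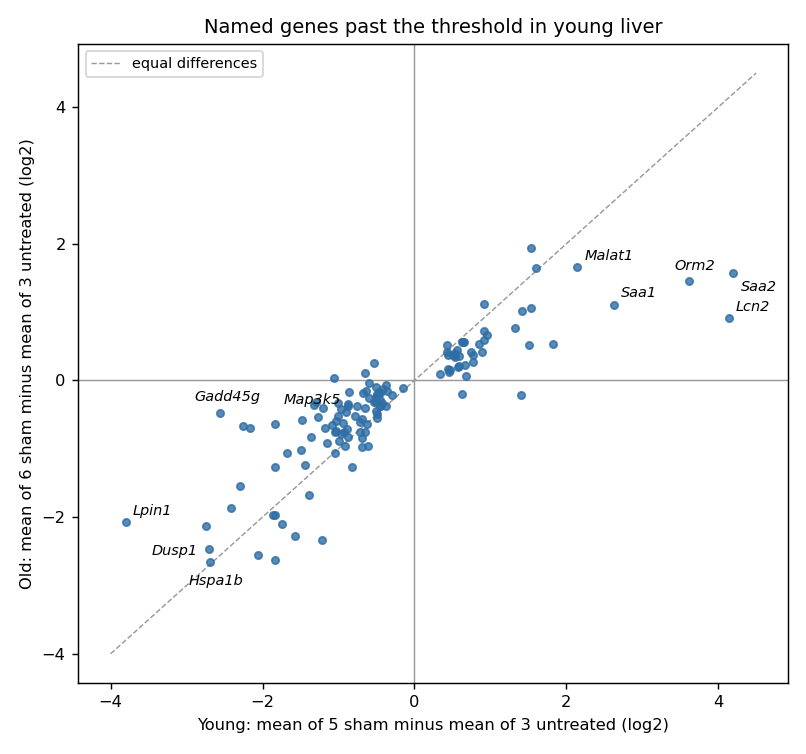
Sham minus untreated difference in old liver against that in young liver (log2) for the 132 named genes past the threshold in young liver. Most points share a sign, and Saa2 (4.2 young, 1.57 old) and Lcn2 (4.14 and 0.91) lie well below the line of equal change.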

How the data were processed

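RNA of mouse liver was hybridised to Affymetrix whole-genome arrays. Per the submitters' processing notes, the deposited log2 values are RMA signals made by the authors (background correction, quantile normalization, probe summary). Its version is not given in the sources used here, nor is the set of arrays it was run on. The number of arrays limits the precision. Of 45101 probe sets 34945 have 1 gene symbol in the platform table. Each of 18193 genes was read on its probe set with the highest mean.

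Group means of the 17 untreated and sham arrays of both ages (8 groups) were fitted with limma 3.58.1 in R 4.3.3 (9 residual and 5.02 prior degrees of freedom). Sham contrasts weight arrays equally, with Benjamini-Hochberg adjustment over all genes (threshold 0.05). Young sham against 0 h data were simulated on 18193 genes with independent noise and 50 genes shifted at each size. Of shifts of 0.5 and 1 (log2) 72% and 96% were recovered. In the data a far larger share of genes was called (39.4%), so recovery there may differ.

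The samples, gene lists and rule for named genes were chosen with earlier results of these data known. Named were the 12 largest rises and 12 largest falls without overlap, up to 4 members of each list (other cell lists by counts), the 5 largest each way between times and ages, and a panel. Other names were chosen after their values were seen. Alternatives changed probe sets, dim genes, scaling, prior, weights, arrays, block and single arrays. Promoters are RefSeq's (GRCm38.p6). Figures used matplotlib 3.10.9.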

Additional observations from a re-analysis of the deposited data

Results flagged for a closer look

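Values that stood apart within the 5 young sham arrays came mostly from the 38 h array, with 14 of 18 such values among 196 sets of 5 arrays checked (chance gives about 1 in 20). Of these 14, 7 belong to genes named for their difference at 38 h, so the tally is partly fixed by that choice. It was lowest for Nr1d1 (7.47), Nr1d2 (8.83), Malat1 (9.24), Pde4b (7.57), Srrm2 (9.29), Dgat2 (12.78), Tat (13.04) and the clock score (-0.70), and highest for Cox6b2 (8.16), Hspb1 (11.98), Tpbpb (8.33), Ttk (7.20), Zfp3 (7.86) and the gallbladder and gut score (0.27). The first 48 h array was lowest for Atf4 (11.68) and Tek (7.67) and highest for Ccr2 (9.61), and the first 24 h array was highest for the glucocorticoid score (-0.32).

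The single 38 h array, for which time and array cannot be told apart, differed from the 24 h and 48 h arrays in Cd36 (2.06), Cox6b2 (1.66), Tpbpb (1.52), Hspb1 (1.36), 5730507C01Rik (0.99), Cyp1a2 (-0.88), Mup10 (-1.72), Pde4b (-1.84), Nr1d2 (-1.94), Malat1 (-2.0) and Nr1d1 (-2.55). Between ages, the sham response over all 3 times differed in Map3k5 (-0.90). Outside the gene measurements, the spiked-in controls reached 10.81 on a sham array, above the untreated range of 10.02 to 10.12.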

How the results depend on the processing

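The count for young sham against 0 h lay between 4927 and 8563 genes under the alternatives per gene. Of 132 named genes past the threshold 82 kept their call in all 8 fits without 1 array and in every other setting that could be run for them (14, or 13 in 5 genes). Testing each probe set gave 13350 calls over all times, 8747 at 24 h, 9764 at 38 h, 8037 at 48 h, 387 at 38 h against 24 h and 48 h, and 2 between ages. The 38 h contrast (90) gave 194 with the highest-variance probe set, 191 after quantile normalization, 356 with array weights, 51 with all 35 arrays, 322 with the 8 young arrays and 179 without the 2 outlying arrays, and 9 to 105 without single arrays. At 48 h against 24 h (0) an intensity trend gave 2, array weights 14 and the 8 young arrays 11. Between ages (1) the count was 0 with the highest-variance or mean probe set, centred arrays, equal times or 24 h and 48 h arrays only, 2 with a trend or weights, 4 with all 35 arrays or without the 2 outlying ones, and 0 to 2 without single arrays. Without single arrays 24 h gave 1857 to 5110 calls and 48 h gave 1137 to 4677. The cause was not tested, except that more units are tested per probe set.

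Same-numbered young samples (untreated, 24 h and 48 h sham) deviated from their group means together at r of -0.04 to 0.10. In the 24 h and 48 h groups the deviations of the replicates mirror each other, so these correlations are not independent. The 38 h array and the old arrays were not covered. Whether same-numbered samples share more than a number, such as a processing day, was not tested. With the replicate number as a block the fit gave 6735 calls over all times and 31 in the 38 h contrast, and Mki67 was -0.06415.

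Signs turned for Rgs5 with the highest-variance probe set (0.1452), and with mean probe sets for Cdca8 (0.1722) and Pde4b (0.0478). After quantile normalization they turned for Hspb1 (0.07975), Mki67 (-0.03967), Pcna (0.03312) and Pde4b (0.02896), with centred arrays for Mki67 (-0.006914), with weights for Mt2 (0.09153), and with equal times for Hspb1 (0.04574) and Mki67 (-0.02686). Without single arrays the range was -0.003613 to 0.2964 for 5730507C01Rik, -0.463 to 0.08519 for Mup10, -0.4758 to 0.2314 for Pde4b and -0.02089 to 0.3902 for Tpbpb, the extreme across 0 coming without the 38 h array. It was -0.7539 to 0.02187 for Cd36, -1.156 to 0.2563 for Mt2, -0.591 to 0.7193 for Mt1, -0.4084 to 0.07951 for Hspb1, -0.5595 to 0.0255 for Arntl, -0.04118 to 0.3691 for Pdk4, -0.01111 to 0.4257 for Fasn and -0.08928 to 0.1047 for Mki67. The cause was not tested.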

Other observations

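Several gene groups varied within the sham arrays. Of 22 ER stress genes 4 fell and 1 rose. The 1 that rose was Atf4 (0.56 ± 0.09), without overlap and on all 3 of its probe sets. It kept its call under every alternative. Herpud1, a factor of ER-associated degradation, fell from 13.14, 12.94 and 13.28 to 11.99, 12.27, 12.44, 11.88 and 12.63 (-0.88 ± 0.20), and Trib3, a pseudokinase induced by the integrated stress response, fell by 0.86 ± 0.10. The list score was -0.65 on the first 48 h array and -0.25 to 0.14 on the others. That array also had 9.77 for the collagen gene Col1a1, against 7.57 to 7.98 on the other sham arrays and 7.09 to 7.47 untreated. Col1a1 was chosen after its values were seen and did not pass (0.82 ± 0.43, adjusted p 0.1489).

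Of 17 antioxidant genes 5 fell and 2 rose, with 1 fall without untreated replicate 1. Gsta2, a glutathione transferase, fell from 11.79, 11.62 and 11.58 to 10.48, 9.32, 9.52, 11.14 and 10.37 (-1.49 ± 0.35). Of 27 complement and coagulation genes 4 rose and 5 fell. Factor XI (F11) fell by 0.94 ± 0.13 from 11.15, 10.95 and 11.18 to between 9.95 and 10.28, and the lectin Mbl1 rose by 0.51 ± 0.12, a call lost with all 35 arrays in the fit (adjusted p 0.287). In this list 2 genes rose without untreated replicate 2 or the second 48 h array, and 3 fell without untreated replicate 3. Among 20 iron and metal genes the zinc importers Slc39a4 (-1.36 ± 0.19) and Slc39a14 (-0.60 ± 0.11) fell without overlap. Without untreated replicate 2 the list had 7 falls in place of 4. The shares that fell in these 4 lists were 18.2% (ER stress), 29.4% (antioxidant), 18.5% (complement and coagulation) and 20% (iron and metal), against 39.5% of the brightest class of genes, in which most of their members lie.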
